A study of Hydrangea macrophylla with 27 samples.

Results

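The transcriptome of Hydrangea macrophylla stems was compared between 1 h and 3 h after bending, to find the transcripts whose response to bending differed between these times. The bending effect is the log2 fold change of bent over unbent stems at 1 time, and the quantity tested was the effect at 3 h minus the effect at 1 h, called the difference below. It used 12 of the 27 libraries of the series, 3 for each of 4 groups, and was tested in 52918 of 142016 assembled transcript clusters. A cluster stands for a gene or a fragment of one, and its name is that of its best match in Swiss-Prot, often a gene of another plant. A difference was found for 445 clusters, which were sorted by the time and direction of the bending effect.

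The plants were wild-type micro-cuttings of the cultivar 'Wudu', raised in pots under 16 h of light per day, and RNA came from whole stems. The bent groups went through 12 bendings by a moving plastic curtain on 1 morning, which tilted the stems 30° from the vertical for about 30 s. The unbent groups, sampled at the same 1 h and 3 h, were the controls of their own time. The labels number the 3 libraries of a group as replicates and do not say how many plants each holds, nor whether hours run from the first or the last bending. Every group is of 1 cultivar and 1 treatment day, so the p-values measure the spread between these samples of that day.

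Plant cells sense bending through stretch-gated ion channels and through receptors that watch the cell wall. Calcium, reactive oxygen and jasmonate, a hormone of wounding and touch, carry the signal, and genes for calcium sensors, wall-remodelling enzymes and transcription factors respond within minutes to hours. Repeated bending is known to give shorter, thicker stems, a growth response named thigmomorphogenesis.

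Total counts in the 12 libraries were 14.35 to 19.81 M. Markers of several stem tissues were present in each of them, with summed levels of 1104 to 1866 CPM (counts scaled to a common library total) for 35 xylem clusters, 726.5 to 863 for 24 phloem clusters and 895.3 to 982.4 for 47 meristem and cell cycle clusters. No xylem or meristem marker differed. In the phloem list 1 of the 24 clusters did, named as F-box protein PP2-A12, and in the epidermis list 1 of 21, GL2. Of all tested clusters 0.841% differed. Lists this small would hold few or no calls at that share, and nothing is read from these counts. In whole stems, fewer cells of a type and less RNA per cell cannot be told apart. Ribosomal RNA took 3.31% to 6.96% of counts in the bent and 2.69% to 3.22% in the unbent libraries at 1 h, against 3.35% to 5.73% and 3.07% to 4.06% at 3 h. The bent libraries richest in it were replicate 2 at both times.

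Most clusters that differed were affected by bending at 3 h and not detectably at 1 h. In the test of the difference, 445 of 52918 clusters (0.841%) had a Benjamini-Hochberg adjusted p under 0.05 by edgeR's quasi-likelihood test, 296 (0.559%) with a higher and 149 (0.282%) with a lower effect at 3 h. At an unadjusted p under 0.05 there were 4856 (9.18%). Of the 445, 278 were called at 3 h only, with 179 higher and 99 lower where bent. Another 104 were called at 1 h only, 35 higher and 69 lower. There were 21 with calls of opposite sign, of which 17 turned from lower to higher and 4 from higher to lower. The remaining 42 comprised 7 called in the same direction at both times and 35 called at neither time. A name from Swiss-Prot was held by 296 of the 445 clusters, giving 264 distinct symbols.

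**Figure D1:**
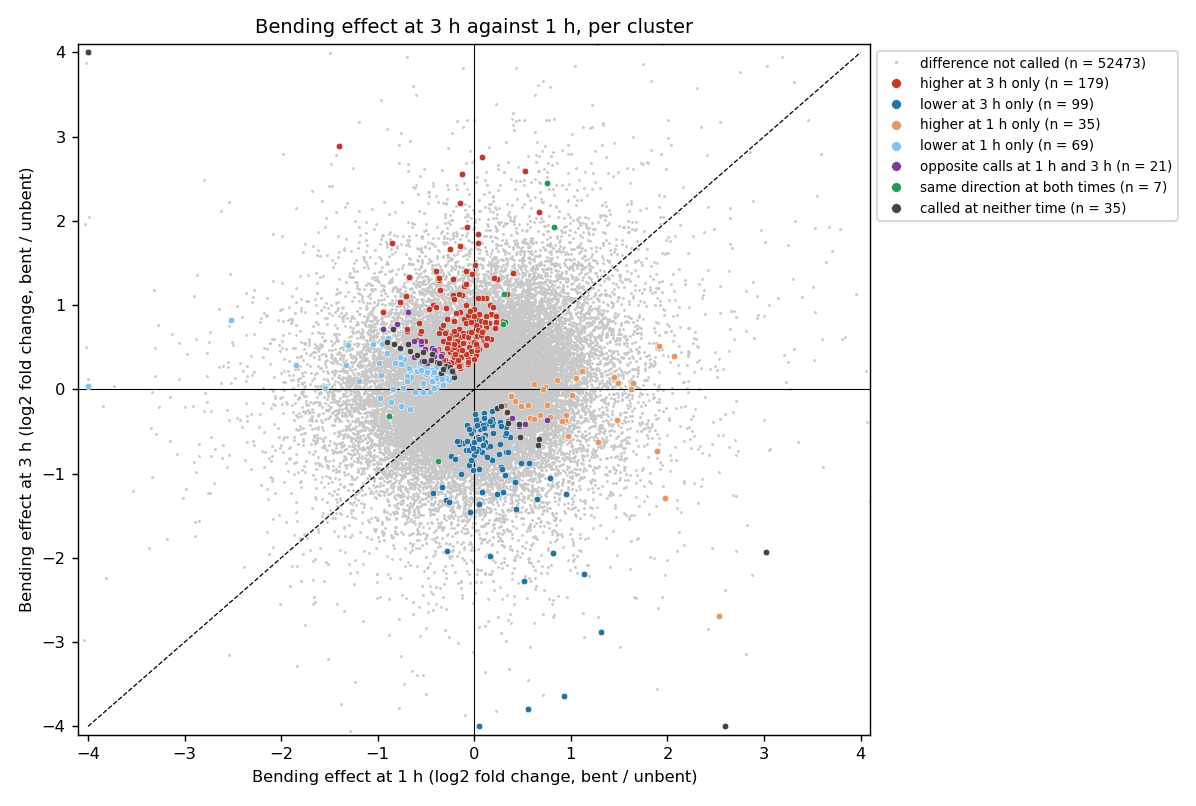
Bending effect at 3 h (vertical axis) against 1 h (horizontal axis), both as log2 fold change of bent over unbent stems, with 1 point per tested cluster, coloured where the difference was called, and a dashed line of equal effects. The 179 clusters called higher at 3 h only lie above the line around an effect of 0 at 1 h, and 5 coloured points beyond 4 log2 units are drawn at the edge.

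The bending effect itself was called in 1021 clusters (1.93%) at 1 h, higher in 590 (1.11%) and lower in 431 (0.814%). The effect at 3 h was called in 2689 (5.08%), higher in 1613 (3.05%) and lower in 1076 (2.03%). At an unadjusted p under 0.05 these shares were 10.5% and 15.8%. Unbent stems also changed between these times, with 6749 clusters (12.8%) called, 6.14% of all tested as higher and 6.62% as lower at 3 h, and 23.0% at an unadjusted p under 0.05. Bent stems changed in 9799 (18.5%), 9.38% higher and 9.14% lower, with 27.9% at an unadjusted p under 0.05. The difference equals the change of bent stems minus the change of unbent stems. Medians of both are given here for clusters called at 1 time only, and both changes for some of the genes below. Among clusters called lower at 1 h only, the unbent level rose by a median of 0.60 on the log2 scale from 1 h to 3 h and the bent level by 1.39. Among those called higher at 1 h only, the medians were -0.68 in unbent and -2.05 in bent stems. Among those called higher at 3 h only they were 0.35 and 1.04, and among those called lower at 3 h only -0.01 and -0.77.

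The number of calls depended on single libraries. It was 275 without bent 1 h replicate 1, 281 without unbent 1 h replicate 3, 289 without unbent 3 h replicate 2 and 227 without unbent 3 h replicate 3, and 257 without the bent library richest in ribosomal RNA at each time. Calls at 1 h only numbered 34 without bent 1 h replicate 1, 61 without unbent 1 h replicate 1 and 64 without unbent 1 h replicate 3. Calls at 3 h only numbered 176 without bent 1 h replicate 2, 174 without unbent 1 h replicate 3, 165 without bent 3 h replicate 1, 182 without unbent 3 h replicate 2, 114 without unbent 3 h replicate 3 and 441 without unbent 3 h replicate 1. Opposite calls numbered 12 or 13 without bent 1 h replicate 1, unbent 1 h replicate 1, bent 3 h replicate 1 or unbent 3 h replicates 2 or 3, and 37 or 34 without bent 1 h replicates 2 or 3. The effect at 1 h was called in 382 clusters without bent 1 h replicate 1, 514 without unbent 1 h replicate 1 and 556 without unbent 1 h replicate 2. The effect at 3 h was called in 1318 without bent 3 h replicate 1 and in 1283 without unbent 3 h replicate 3. The share of calls with a higher effect at 3 h was 66.5% here, 78.7% in limma-voom and 80.4% or 79.1% on the log2(FPKM + 0.1) or log2(FPKM + 1) scale. It was lower in other settings, at 61.8% in a fit of the 12 libraries alone, 62.2% with no filter on low counts and 63.2% in DESeq2.

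A call at 1 time alone rarely came with a tested difference. Of 689 clusters called at 1 h and not at 3 h, 104 (15.09%) differed between the times, and 585 were not shown to differ. Of 2357 called at 3 h and not at 1 h, 278 (11.79%) differed and 2079 were not shown to. The rises called at 1 h alone without a tested difference had a median effect of 0.78 at 1 h and 0.26 at 3 h. Their counterparts called at 3 h alone had medians of 0.15 and 0.54. All 21 clusters with calls of opposite sign passed the test of the difference, as did 7 of the 311 with calls of the same sign. Effects called in opposite directions lie far apart by construction, so the first count is no added evidence. The standard error of the difference had a median of 0.50 log2 units over all clusters and of 0.16 over the 15967 with at least 10 CPM. In simulated counts for the same 52918 clusters, 49 of 100 differences of 2-fold and 85 of 100 of 4-fold were recovered. The changed clusters were drawn only from those with a mean above 1 CPM at both times, so recovery at lower levels was not simulated.

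The named clusters that turned from lower to higher included MKK9, a kinase that activates mitogen-activated protein kinases and acts upstream of ethylene synthesis in Arabidopsis, MYC2, the central transcription factor of jasmonate responses, and MYB61, a MYB factor with roles in stomata, xylem and carbon allocation. For MKK9 the 3 unbent libraries at 1 h held 109, 96.9 and 90.3 CPM and the bent ones 46.6, 76.6 and 60.1. At 3 h the unbent libraries held 98.7, 86.3 and 77.2 CPM and the bent ones 168, 165 and 161. The bent libraries lay wholly below the unbent ones at 1 h and wholly above them at 3 h, as was required for naming a turned cluster. The effect was -0.69 ± 0.17 (standard error, n = 3 against 3) at 1 h and 0.91 ± 0.17 at 3 h, and the difference 1.60 (95% interval 1.12 to 2.08, edgeR adjusted p = 0.00206). In unbent stems, MKK9 was not called between the times (-0.17 on the log2 scale, adjusted p = 0.631).

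MYC2 showed the same order at a smaller size. Unbent libraries at 1 h held 62.4, 56.3 and 64.0 CPM and bent ones 38.9, 48.5 and 49.1. At 3 h the values were 79.0, 74.6 and 65.6 CPM in unbent and 98, 99.6 and 91.5 in bent libraries. The groups did not overlap at either time, and the effect went from -0.42 ± 0.09 to 0.40 ± 0.09, a difference of 0.82 (0.57 to 1.06, edgeR adjusted p = 9.65e-05). MYB61 held 29.3, 21.2 and 23.6 CPM in unbent and 13.6, 17.6 and 16.7 in bent libraries at 1 h. At 3 h it held 67.1, 62.0 and 55.9 CPM in unbent and 83.6, 77.4 and 80.3 in bent libraries. MYB61 thus rose between the times in both, by 1.32 log2 units in unbent and 2.33 in bent stems, with a difference of 1.01 (0.76 to 1.26, adjusted p = 4.27e-06).

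RMA1H1, an E3 ubiquitin ligase of the endoplasmic reticulum described in pepper, had the largest turn of those named. Its mean in unbent stems was 12.0 ± 1.91 CPM (SD) at 1 h and 36.3 ± 7.19 at 3 h, and in bent stems 6.16 ± 1.60 and 59.6 ± 3.32. The difference was 1.66 (1.11 to 2.22, edgeR adjusted p = 0.00358). PPCK1, the kinase that activates phosphoenolpyruvate carboxylase, had 50.3, 41.5 and 45.8 CPM in unbent and 35.5, 35.9 and 31.7 in bent libraries at 1 h. At 3 h PPCK1 had 129, 109 and 106 CPM in unbent and 170, 154 and 151 in bent libraries. As the naming required, none of these groups overlapped within a time, and the PPCK1 difference was 0.88 (0.65 to 1.12). A threonine synthase, an enzyme of amino acid synthesis, differed by 0.99 (0.70 to 1.29), the CCCH zinc finger gene At2g19810 by 0.86 (0.63 to 1.09) and COL15, a CONSTANS-like factor, by 0.81 (0.51 to 1.11). In all 3, bent libraries lay below unbent ones at 1 h and above them at 3 h.

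Among the 4 clusters that turned from higher to lower, 2 had a name. GT-2, a trihelix transcription factor, held 43.8, 40.8 and 38.6 CPM in unbent and 53.5, 59.4 and 57.2 in bent libraries at 1 h. The libraries at 3 h held 20.5, 23.6 and 25.1 CPM in unbent and 18.6, 15.2 and 17.4 in bent libraries, so the bent libraries went from above to below. The GT-2 difference was -0.90 (-1.17 to -0.64, edgeR adjusted p = 6.50e-05). RKL1, a receptor-like kinase annotated as probably inactive, went from an effect of 0.39 ± 0.09 to -0.34 ± 0.09, a difference of -0.73 (-0.98 to -0.48). For the 10 turned clusters named here the difference was called under each of 24 alternatives, but the effect at a single time could lie close to the threshold, as for MKK9 at 1 h (adjusted p = 0.047). A gap between the bent and unbent libraries was common over all clusters, at 16.6% at 1 h and 20.8% at 3 h. Turned clusters were named only where there was such a gap at both times, so their gaps are no added evidence. The same held, at the time of the call, for clusters named by size among those called at 1 time only.

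**Figure D2:**
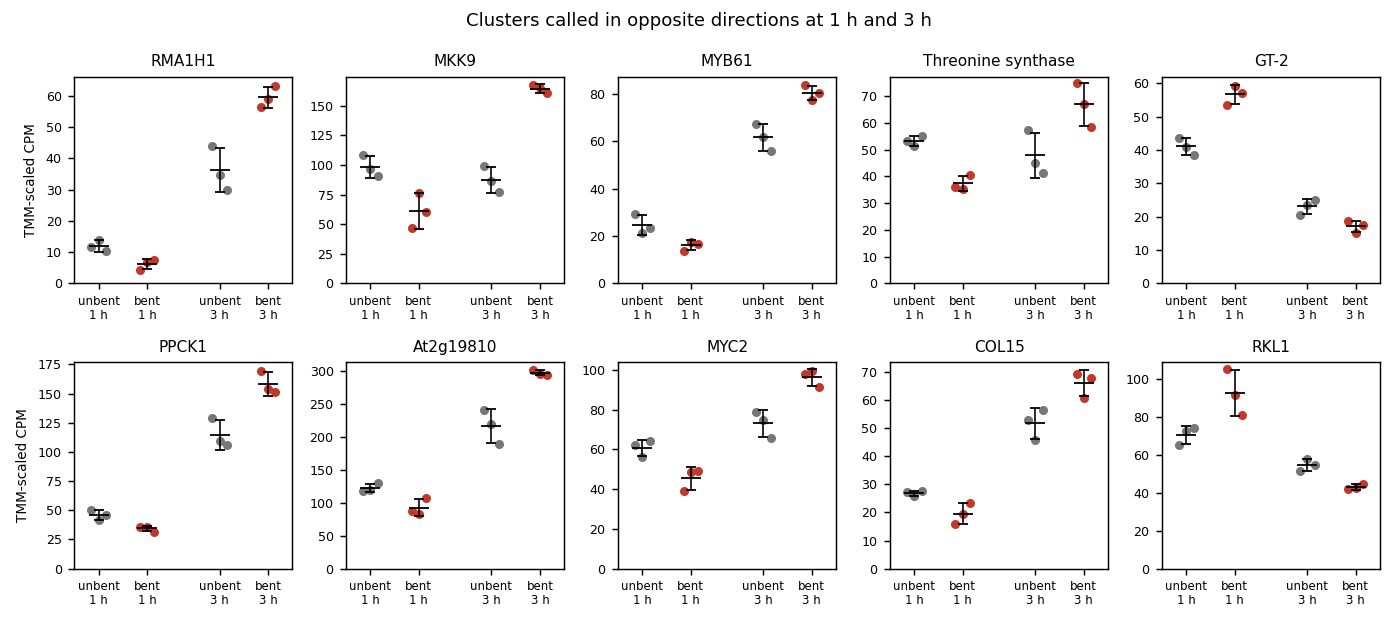
TMM-scaled CPM (vertical axes from 0) of the 10 named clusters with calls of opposite sign, in unbent and bent stems at 1 h and 3 h; points are libraries, bars the mean ± SD of 3. In the 8 that turned from lower to higher, such as MKK9, the bent libraries lie below the unbent ones at 1 h and above them at 3 h, and in GT-2 and RKL1 the order is reversed. Turned clusters were named only if these libraries did not overlap at either time.

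Clusters higher in bent stems at 1 h only had a median effect of 0.91 at 1 h and -0.19 at 3 h. A choice by the size of the difference favours opposite signs. The sign of a class median at the time without a call is therefore not read, here or for the classes below. The named ones kept under each of 24 alternatives were the transcription factors BHLH49 and MYB73 and TMK4, a receptor-like kinase linked to auxin signalling. BHLH49 held 112, 115 and 117 CPM in unbent and 282, 205 and 208 in bent libraries at 1 h. At 3 h the values were 36.0, 37.4 and 32.5 CPM in unbent and 33.2, 35.7 and 32.0 in bent libraries. All bent libraries were far above the unbent ones at 1 h, and the groups overlapped at 3 h. The effect of 1.01 ± 0.08 at 1 h became -0.07 ± 0.08, a difference of -1.08 (-1.31 to -0.85, edgeR adjusted p = 6.73e-08). MYB73, a MYB factor linked to stress responses in Arabidopsis, held 26.6, 27.9 and 29.3 CPM in unbent and 60.6, 58.6 and 55.0 in bent libraries at 1 h. By 3 h MYB73 was at 11, 10.5 and 9.94 CPM in unbent and 11.8, 11.9 and 10.7 in bent libraries. The difference was -0.92 (-1.22 to -0.62) for MYB73 and -0.89 (-1.19 to -0.59) for TMK4, and each fell in unbent stems between the times too, by 1.42 and 0.99 log2 units.

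In the list of cell wall loosening, 1 of 150 tested clusters was called higher at 1 h only. XTH23, a xyloglucan endotransglucosylase/hydrolase that cuts and rejoins wall xyloglucan, held 44.8, 41.5 and 51.2 CPM in unbent and 283, 168 and 128 in bent libraries at 1 h. Its levels at 3 h were 21.4, 18.7 and 26.7 CPM in unbent and 43, 20.9 and 24.4 in bent libraries. Bent replicate 1 was the highest at both times, and the groups overlapped at 3 h. The effect went from 2.07 ± 0.27 to 0.40 ± 0.28, a difference of -1.67 (-2.42 to -0.93, edgeR adjusted p = 0.0429). That call was lost without any 1 library other than bent 1 h replicate 3 or bent 3 h replicate 1, with differences of -1.78 to -1.29 and adjusted p of 0.0542 to 0.156, and it was also lost in limma-voom, in a fit of the 12 libraries alone, with no filter on low counts and without the bent libraries richest in ribosomal RNA. GATL9, a galacturonosyltransferase-like protein, went from an effect of 1.65 ± 0.24 to 0.08 ± 0.26, a difference of -1.57. It lost its call without bent 1 h replicate 1 (-1.34, adjusted p = 0.0777), bent 3 h replicate 3 (-1.34, 0.0573) or unbent 3 h replicate 3 (-1.34, 0.107), and on the log2(FPKM + 0.1) scale (adjusted p = 0.111). SRC2, a C2-domain protein first described in cold-treated soybean, was at 8 ± 0.628 CPM in unbent and 15.1 ± 1.65 in bent stems at 1 h, with a difference of -1.29. It lost its call on the log2(FPKM + 0.1) scale (adjusted p = 0.0645) and without the libraries richest in ribosomal RNA (adjusted p = 0.0798). Bent 1 h replicate 1 was the most extreme of the bent libraries in 28 of these 35 clusters, and calls at 1 h only fell from 104 to 34 without it.

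Clusters lower in bent stems at 1 h only had a median effect of -0.56 at 1 h and 0.21 at 3 h. Of these 69 clusters, 48 rose and 5 fell from 1 h to 3 h in unbent stems, where 6.14% of all tested clusters rose and 6.62% fell. The same unbent libraries entered the choice of these clusters. The 69 had a median level before bending of 33.35 CPM, against 1.928 over all tested, which eases the calling of changes. Nothing is therefore read from this comparison. Bent 1 h replicate 1 was the most extreme of the bent libraries in 48 of the 69. PI4KG5, annotated as a phosphatidylinositol 4-kinase of the gamma type, held 45.1, 42.6 and 39.9 CPM in unbent and 20.4, 24.2 and 26.2 in bent libraries at 1 h. At 3 h it held 124, 124 and 116 CPM in unbent and 114, 125 and 126 in bent libraries. The groups were apart at 1 h and overlapped at 3 h, with effects of -0.85 ± 0.08 and 0.00 ± 0.07 and a difference of 0.85 (0.65 to 1.06, edgeR adjusted p = 2.45e-06). ERD15, a small protein that dampens abscisic acid responses in Arabidopsis, held 132, 119.8 and 121 CPM in unbent and 79.6, 103 and 75.3 in bent libraries at 1 h. At 3 h ERD15 had risen to 499.5, 489 and 495 CPM in unbent and 494, 505 and 544 in bent libraries. The effect thus went from -0.53 ± 0.08 to 0.06 ± 0.07 while both groups rose, a difference of 0.59 (0.39 to 0.80).

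BC10, a Golgi glycosyltransferase needed for secondary walls in rice, was at 36.7 ± 1.81 CPM in unbent and 20.7 ± 4.86 in bent stems at 1 h, with a difference of 1.13 (0.84 to 1.41, edgeR adjusted p = 2.97e-05). At1g67750, a probable pectate lyase, was at 79.8 ± 8.53 and 55.5 ± 1.66 CPM, with a difference of 0.79 (0.51 to 1.07). ZFP1, a C2H2 zinc finger protein, was at 6.19 ± 1.78 and 2.67 ± 0.504 CPM, with a difference of 1.29 (0.80 to 1.77). PI4KG5, ERD15, BC10, At1g67750 and ZFP1 kept their calls under each of 24 alternatives. ADO3, whose Arabidopsis protein FKF1 is a blue-light receptor of the clock and flowering, was scarce at 1 h, with 1.32, 0.776 and 2.09 CPM in unbent and 0.377, 0.368 and 0.411 in bent libraries. At 3 h ADO3 had 19.9, 12.8 and 13.7 CPM in unbent and 17.6, 19.9 and 19.0 in bent libraries, which overlapped. Its difference of 2.14 lost its call without bent 1 h replicate 1 (2.12, adjusted p = 0.0544), bent 1 h replicate 2 (2.10, 0.0517) or unbent 1 h replicate 3 (1.70, 0.147), without the libraries richest in ribosomal RNA (0.0926), in limma-voom (0.171) and on both FPKM scales (0.164 and 0.225).

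**Figure D3:**
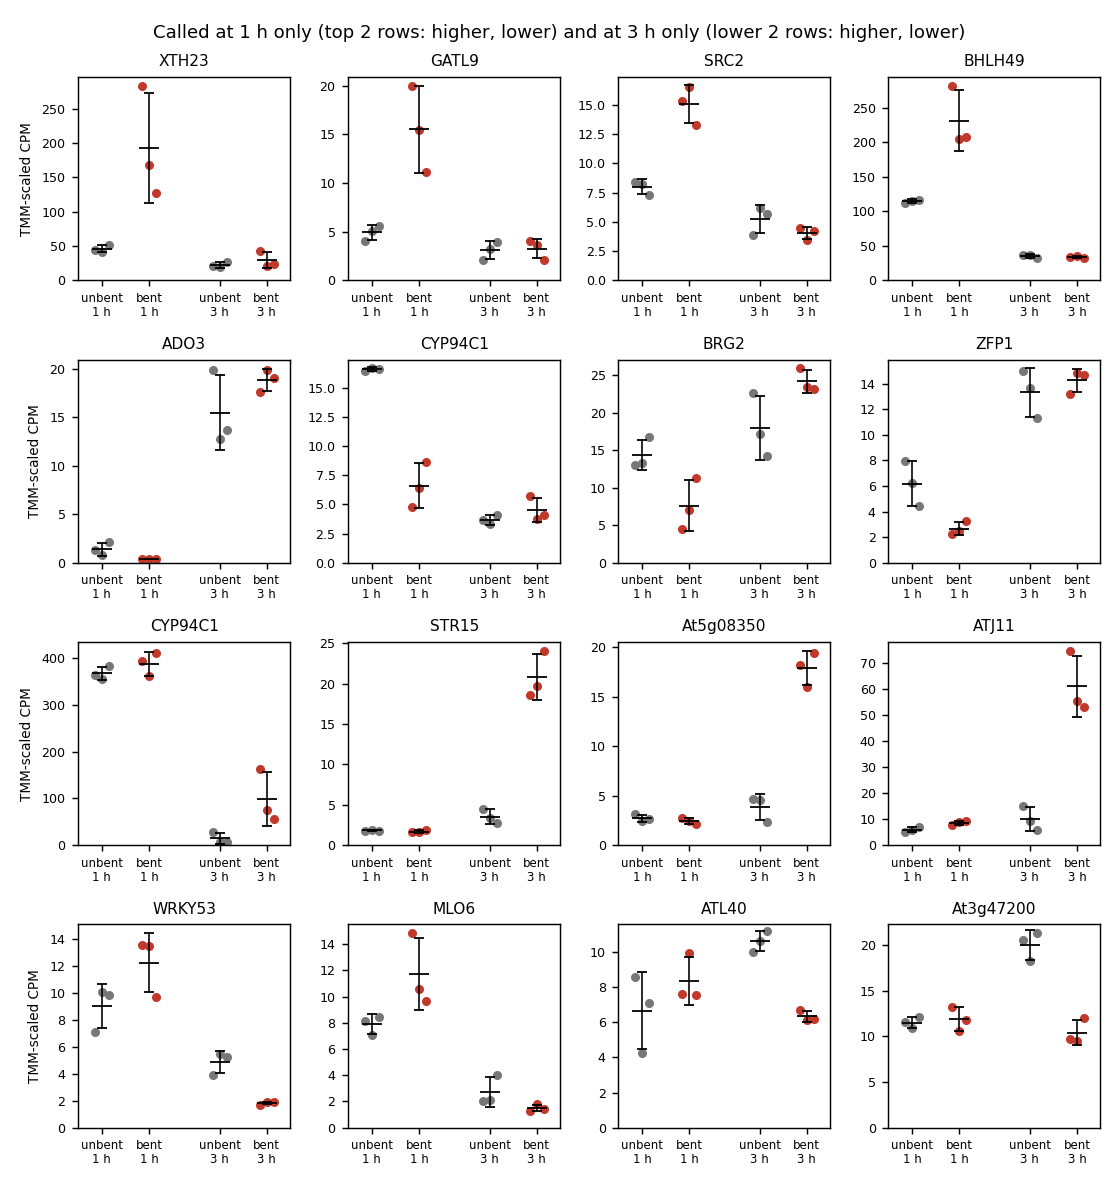
TMM-scaled CPM (vertical axes from 0) of the 4 named clusters with the largest difference in each class: higher and lower at 1 h only in the top rows, higher and lower at 3 h only in the bottom rows; points are libraries, bars the mean ± SD of 3. BHLH49 stands apart at 1 h, with bent libraries at 205 to 282 CPM, and STR15 at 3 h, with bent libraries at 18.6 to 24.1 CPM. These clusters were named only if bent and unbent libraries did not overlap at the time of the call.

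Clusters higher in bent stems at 3 h only formed the largest class, with a median effect of -0.12 at 1 h and 0.68 at 3 h. Bent 3 h replicate 1 was the most extreme of the bent libraries in 117 of these 179 clusters, and calls at 3 h only numbered 165 instead of 278 without it. STR15, a rhodanese-like protein of plastids annotated as a senescence gene in Arabidopsis, held 1.80, 1.94 and 1.75 CPM in unbent and 1.57, 1.60 and 1.85 in bent libraries at 1 h. The libraries at 3 h held 4.54, 3.42 and 2.69 CPM in unbent and 18.6, 19.7 and 24.1 in bent libraries. The groups overlapped at 1 h and were far apart at 3 h, with effects of -0.12 ± 0.34 and 2.55 ± 0.28 and a difference of 2.67 (1.81 to 3.54, edgeR adjusted p = 0.000484). At5g08350, a GEM-like protein of a family linked to abscisic acid, held 18.2, 16.0 and 19.5 CPM in bent libraries at 3 h and at most 4.71 in each of the other 9. Its difference was 2.36 (1.64 to 3.08). At1g67480, an F-box protein with kelch repeats, held 48.8, 42.0 and 27.8 CPM in unbent and 144, 115 and 136 in bent libraries at 3 h, with a difference of 1.70 (1.29 to 2.10). At 1 h it was at 20.6 ± 2.12 CPM in unbent and 21.2 ± 1.57 in bent stems. OTU10, a deubiquitinating enzyme, also differed by 1.70 (1.17 to 2.22).

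GA20OX2, an enzyme of gibberellin synthesis, held 3.74, 4.79 and 5.03 CPM in unbent and 2.39, 3.86 and 4.31 in bent libraries at 1 h. At 3 h the values were 14.0, 11.1 and 10.3 CPM in unbent and 23.9, 28.1 and 28.3 in bent libraries. The groups overlapped at 1 h and not at 3 h, and the difference was 1.54 (1.03 to 2.04, edgeR adjusted p = 0.000335). CIPK12, a kinase activated by calcineurin B-like calcium sensors, held 4.50, 5.76 and 5.87 CPM in unbent and 3.71, 5.40 and 6.01 in bent libraries at 1 h. At 3 h CIPK12 held 9.13, 8.55 and 7.30 CPM in unbent and 19.9, 22.7 and 23.7 in bent libraries, a difference of 1.5 (0.96 to 2.04). An abscisic acid receptor cluster, PYL8, differed by 0.65 (0.41 to 0.89), with an effect of -0.30 ± 0.09 at 1 h that was not called and of 0.35 ± 0.08 at 3 h that was. A second PYL8 cluster was called lower at 1 h only and differed by 0.54, but lost its call without unbent 1 h replicate 3 (0.50, adjusted p = 0.0602), without unbent 3 h replicate 3 (0.51, 0.0553) and without the libraries richest in ribosomal RNA (0.0752).

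Of sugar and starch genes, 8 of 174 tested clusters had a higher and 2 a lower effect at 3 h. BAM9, a catalytically inactive beta-amylase, was matched by 2 clusters. The more abundant one held 21.5, 23.2 and 21.0 CPM in unbent and 20.1, 22.8 and 18.3 in bent libraries at 1 h. Its levels at 3 h were 107, 88.2 and 74.3 CPM in unbent and 214, 202 and 213 in bent libraries. The level rose between the times in unbent stems by 2.03 log2 units and in bent stems by 3.37 (difference 1.33, 0.95 to 1.71, edgeR adjusted p = 0.00055), and the second BAM9 cluster had a difference of 1.53 (1.01 to 2.05). The 2 clusters may be parts of 1 gene. TPS6, a trehalose-phosphate synthase of the class with regulatory roles, held 86.2, 73.7 and 78.3 CPM in unbent and 67.2, 73.1 and 69.6 in bent libraries at 1 h. At 3 h TPS6 held 132, 112 and 106 CPM in unbent and 198, 152 and 186 in bent libraries, a difference of 0.80 (0.56 to 1.04). Picked after their values were seen, 2 clusters of AGPS2, a subunit of the enzyme that commits glucose to starch, differed by 0.68 and 0.88, and SPS1, a sucrose-phosphate synthase, by 0.61. The 2 sugar and starch clusters with a lower effect at 3 h were the sugar transporter At1g54730 (-0.91) and, also picked after its value was seen, the starch synthase SS3 (-0.44). The AGPS2 cluster at 0.68 and SPS1 kept their calls under each of 24 alternatives, and the other AGPS2 cluster lost its call without any 1 library other than bent 1 h replicate 3 or unbent 3 h replicate 1 (0.75 to 0.89, edgeR adjusted p of 0.0507 to 0.137). SS3 did so without any 1 library other than unbent 1 h replicate 1 or bent 3 h replicate 3 (-0.46 to -0.35, 0.0558 to 0.213), and At1g54730 without unbent 1 h replicate 1, unbent 3 h replicate 3, bent 1 h replicate 3 or bent 3 h replicate 2 (-0.86 to -0.75, 0.0621 to 0.143). These 3 also lost their calls without the libraries richest in ribosomal RNA (AGPS2 0.256, SS3 0.205, At1g54730 0.0698), AGPS2 and SS3 did on both FPKM scales, and SS3 did in 4 more alternatives (0.0597 to 0.129). Without the libraries richest in ribosomal RNA, 6 of the 174 clusters were called higher and 0 lower. Over all 52918 clusters that setting called 182 higher and 75 lower.

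CYP94C1, a cytochrome P450 that oxidises the active jasmonate hormone, was matched by 2 clusters in different classes. The first held 365, 357 and 383 CPM in unbent and 394, 361 and 412 in bent libraries at 1 h. At 3 h it held 28, 7.70 and 7.76 CPM in unbent and 164, 75.5 and 56.5 in bent libraries. Both groups were lower at 3 h than at 1 h, and the bent libraries lay above the unbent ones at 3 h. Its difference of 2.68 (1.58 to 3.78, edgeR adjusted p = 0.0259) lost its call without bent 1 h replicates 1 or 2, without any of the unbent 1 h replicates, without bent 3 h replicate 1 or without unbent 3 h replicates 2 or 3, with differences of 2.10 to 2.69 and adjusted p of 0.0529 to 0.0955. It also did so in the fit of 12 libraries alone (0.236), on the log2(FPKM + 0.1) scale (0.0693) and without the libraries richest in ribosomal RNA (0.0778). The second CYP94C1 cluster held 16.5, 16.8 and 16.7 CPM in unbent and 4.78, 6.38 and 8.63 in bent libraries at 1 h. The libraries at 3 h held 3.69, 3.29 and 4.14 CPM in unbent and 5.70, 3.77 and 4.13 in bent libraries, which overlapped. It was called lower at 1 h only, with a difference of 1.61 (0.97 to 2.25, adjusted p = 0.00493) that lost its call on the log2(FPKM + 0.1) scale (0.0703).

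Clusters lower in bent stems at 3 h only had a median effect of 0.09 at 1 h and -0.68 at 3 h, and bent 3 h replicate 1 was the most extreme of the bent libraries in 44 of the 99. WRKY53, a transcription factor of senescence and defence in Arabidopsis, held 7.13, 10.1 and 9.83 CPM in unbent and 13.6, 13.5 and 9.71 in bent libraries at 1 h. Its levels at 3 h were 3.91, 5.46 and 5.28 CPM in unbent and 1.71, 1.88 and 1.89 in bent libraries. The groups overlapped at 1 h and not at 3 h, and the effect went from 0.44 ± 0.19, not called, to -1.41 ± 0.23, a difference of -1.85 (-2.43 to -1.27, edgeR adjusted p = 0.000186). GL2, a homeobox factor of epidermal cell fate, held 10.2, 9.70 and 11.2 CPM in unbent and 9.87, 11.2 and 9.81 in bent libraries at 1 h. At 3 h GL2 held 9.25, 9.74 and 11.1 CPM in unbent and 4.59, 5.32 and 5.60 in bent libraries, a difference of -0.95 (-1.32 to -0.57). In GL2 the 3 bent libraries at 3 h stood alone, below the other 9. At3g47200, a protein of a family of unknown function, differed by -0.99 (-1.38 to -0.61).

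MSL10, a stretch-gated ion channel of the plasma membrane, held 172, 184 and 163 CPM in unbent and 168, 157 and 181 in bent libraries at 1 h. At 3 h it held 115, 126 and 130.2 CPM in unbent and 82.3, 83.6 and 91.9 in bent libraries. The groups overlapped at 1 h and were apart at 3 h, with a difference of -0.49 (-0.69 to -0.28, edgeR adjusted p = 0.00889) that lost its call on the log2(FPKM + 0.1) and log2(FPKM + 1) scales (adjusted p = 0.142 and 0.135). CSE, caffeoylshikimate esterase of the lignin pathway, was matched by 2 clusters that moved in opposite ways. One was at 15.1 ± 3.4 CPM in unbent and 6.79 ± 0.745 in bent stems at 3 h, a difference of -0.82. It lost its call without bent 1 h replicate 2 (-0.78, adjusted p = 0.0557), unbent 1 h replicate 1 (-0.77, 0.06), bent 3 h replicate 1 (-0.75, 0.0782) or unbent 3 h replicate 3 (-0.61, 0.167), in limma-voom (0.0896) and on both FPKM scales (0.141 and 0.245). The other was at 28.2 ± 7.13 and 59.8 ± 12.0 CPM, a difference of 1.00. It lost its call without unbent 1 h replicates 2 (1.02, adjusted p = 0.0501) or 3 (0.94, 0.0797), bent 1 h replicates 2 (0.94, 0.0746) or 3 (0.95, 0.0568) or unbent 3 h replicate 2 (1.02, 0.0629), and in 3 further alternatives with adjusted p of 0.224, 0.0693 and 0.0519.

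In the 7 clusters called in the same direction at both times, 6 had the larger effect at 3 h. WRKY15, a transcription factor, held 73.2, 73.7 and 74.3 CPM in unbent and 88.9, 85.3 and 100.3 in bent libraries at 1 h. The libraries at 3 h held 58.5, 45.8 and 51.7 CPM in unbent and 133, 102 and 107 in bent libraries. The bent libraries lay above the unbent ones at both times, by 0.31 ± 0.09 and 1.13 ± 0.09, a difference of 0.82 (0.57 to 1.06, edgeR adjusted p = 7.89e-05). RFS1, a galactosyltransferase of raffinose synthesis, held 33.4, 40.9 and 36.8 CPM in unbent and 63.4, 71.8 and 62.2 in bent libraries at 1 h. Its levels at 3 h were 144, 118 and 78.2 CPM in unbent and 440, 404 and 456 in bent libraries. Its difference of 1.10 (0.62 to 1.59, adjusted p = 0.0402) lost its call without any 1 library other than unbent 3 h replicate 1 (0.89 to 1.17, adjusted p of 0.0536 to 0.128), with no filter on low counts, in the fit of 12 libraries and without the libraries richest in ribosomal RNA. BRH1, a RING protein named for its response to brassinosteroids in Arabidopsis, was the exception, with effects of -0.88 ± 0.09 and -0.32 ± 0.08 and a difference of 0.57 that lost its call without bent 1 h replicate 1 (0.46, 0.0623) and in limma-voom (0.0646).

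The 35 clusters called at neither time had effects of opposite sign at 1 h and 3 h in all cases. HSFA4A, a heat stress factor, had effects of 0.66 ± 0.21 and -0.66 ± 0.23 and a difference of -1.32 (-1.92 to -0.71, edgeR adjusted p = 0.0194). It lost its call without unbent 1 h replicates 1 or 2, unbent 3 h replicate 3, bent 1 h replicate 1 or bent 3 h replicates 2 or 3 (-1.28 to -1.2, adjusted p of 0.0538 to 0.0769), without the libraries richest in ribosomal RNA (0.0671) and on both FPKM scales (0.111 and 0.0838). ERF003, a factor of the ethylene response family, had effects of 0.47 ± 0.13 and -0.42 ± 0.14 and a difference of -0.88 (-1.26 to -0.51). It lost its call without unbent 1 h replicate 3 (-0.80, 0.0543) or unbent 3 h replicates 2 (-0.81, 0.053) or 3 (-0.83, 0.06), without the libraries richest in ribosomal RNA (0.0752) and on both FPKM scales (0.103 and 0.094). Over all 445 clusters, 341 had effects of opposite sign at the 2 times, 150 of them with an unadjusted p under 0.05 at both. Over all 52918 tested clusters these counts were 22704 and 242, and a choice by the size of the difference favours opposite signs, so nothing is read from them.

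Gene lists were read by their counts beside the 0.841% of all clusters called. Among the 24388 tested clusters with a Swiss-Prot match, a closer base for lists of named genes, 296 were called, which is a higher share. In the list of the circadian clock and CONSTANS-like genes, 5 of 54 tested clusters were called, all with a higher effect at 3 h. They were COL15, above, APRR5, a pseudo-response regulator of the clock, COL5, and, picked after their values were seen, the blue-light receptor gene CRY1 (0.44) and LNK1 (0.44), a clock coactivator. APRR5 held 48.3, 40.2 and 42.1 CPM in unbent and 38.0, 36.7 and 37.5 in bent libraries at 1 h, and its difference was 0.57 (0.34 to 0.79). At 3 h APRR5 held 101, 83.6 and 80.4 CPM in unbent and 118, 113 and 105 in bent libraries, so the bent libraries lay below at 1 h, without a call, and above at 3 h. COL5 differed by 0.56 (0.33 to 0.79). CRY1 lost its call without unbent 3 h replicate 3 (0.39, edgeR adjusted p = 0.0534), and LNK1 without any 1 library other than bent 1 h replicate 1, bent 3 h replicate 2 or unbent 3 h replicate 1 (0.39 to 0.46, 0.0554 to 0.151) and in 6 further alternatives (0.059 to 0.13). In the abscisic acid list, 4 of 51 clusters were called, all higher, namely ERD15, both PYL8 clusters and ABF3 (0.66), a transcription factor of abscisic acid responses picked after its value was seen. ABF3 lost its call without unbent 1 h replicates 2 or 3, unbent 3 h replicates 2 or 3, bent 1 h replicates 1 or 2 or bent 3 h replicate 1 (0.53 to 0.65, edgeR adjusted p of 0.0525 to 0.0825), in the fit of 12 libraries (0.159), on the log2(FPKM + 0.1) scale (0.0537) and without the libraries richest in ribosomal RNA (0.105). The median difference was 0.10 over the 54 clock clusters and 0.14 over the 51 abscisic acid clusters, against 0.01 over all tested. Without the libraries richest in ribosomal RNA, 4 of the 54 (7.41%) and 2 of the 51 (3.92%) were called, against 0.486% of all clusters.

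In the jasmonate list, 3 of 63 clusters had a higher effect at 3 h (MYC2 and both CYP94C1) and 1 a lower one (LOX1.8, a 9-lipoxygenase, -0.45, picked after its value was seen), while the list's median difference was -0.19. LOX1.8 lost its call without any 1 library other than unbent 1 h replicate 2 or unbent 3 h replicate 1 (-0.47 to -0.40, edgeR adjusted p of 0.0555 to 0.164) and in 5 further alternatives (0.0907 to 0.271). In the WRKY list, 3 of 74 were higher and 2 lower, and in the list of calcium and touch genes 3 of 256 were higher and 2 lower. Of 88 kinases of the CIPK and MAPK families, 3 were higher, MKK9 and CIPK12 among them. In the list of reactive oxygen genes and glutathione transferases, 4 of 166 were called, all lower, with a median of -0.15 over the list. They were 2 clusters each of PARC, a glutathione transferase (-0.60 and -0.50), and of CAT1, a catalase that breaks down hydrogen peroxide (-0.51 and -0.30, the latter picked after its value was seen). The first PARC cluster held 66.6, 61.3 and 56.9 CPM in unbent and 74.1, 73.8 and 64.2 in bent libraries at 1 h. At 3 h it held 54.6, 53.2 and 65.8 CPM in unbent and 43.6, 41.0 and 47.1 in bent libraries, a difference of -0.60 (-0.85 to -0.35). The groups overlapped at 1 h and not at 3 h, and the call was lost without unbent 3 h replicate 3 (-0.50, adjusted p = 0.0676), without the libraries richest in ribosomal RNA (0.0733) and on both FPKM scales (0.13 and 0.119). The CAT1 cluster called higher at 1 h only had effects of 0.32 ± 0.08 and -0.19 ± 0.08, and its call was lost without unbent 1 h replicate 2 (-0.42, 0.0892), unbent 3 h replicate 3 (-0.50, 0.0595), bent 1 h replicate 1 (-0.46, 0.0769) or bent 3 h replicate 1 (-0.43, 0.0884) and in 3 other alternatives. The second PARC cluster lost its call without any 1 library other than unbent 1 h replicate 1 and replicates 3 of both bent groups (-0.51 to -0.43, edgeR adjusted p of 0.0511 to 0.141), and the second CAT1 cluster without any other than those or unbent 3 h replicate 1 (-0.31 to -0.23, 0.0509 to 0.178). Both also lost their calls on both FPKM scales and without the libraries richest in ribosomal RNA (0.136 and 0.256), and the CAT1 cluster in the fit of 12 libraries (0.0565) and in limma-voom (0.167). Without the libraries richest in ribosomal RNA, 1 of the 166 (0.602%) was called. All clusters had a share of 0.486% in that setting, so nothing is read from this count.

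Calls in the next lists were 1 to 3 each, shares of 1.389% to 6.25% against 0.841% of all clusters. The lowest of these shares lie near that of clusters with a Swiss-Prot match (296 of 24388), and nothing is read from them. They numbered 3 of 150 for cell wall loosening, 3 of 97 for lignin and phenylpropanoids, 3 of 133 for ethylene, 3 of 117 for heat shock, 3 of 93 for MYB factors and 3 of 152 for ubiquitin ligases of the PUB and ATL families. There were 2 each of 144 auxin, 98 photosynthesis and 63 ribosomal RNA clusters, and 1 each of 71 NAC, 36 gibberellin and 16 wax elongase clusters. Of the 2 called photosynthesis clusters, 1 was higher and 1 lower. Summed levels of 49 markers of green cortex were 6309 to 6879 CPM in bent and 7362 to 8054 in unbent libraries at 3 h. The 1 h ranges were 6997 to 7228 CPM in bent and 6849 to 8117 in unbent libraries, which overlapped. What part the shift at 3 h had in these results was not tested. No member was called among 20 ZAT zinc fingers, 134 organelle-encoded clusters, 30 of Hydrangea ringspot virus and 36 of thrips. The summed level of the virus clusters was nonetheless 23780 to 34940 CPM in bent and 38140 to 58680 in unbent libraries at 3 h, which did not overlap, and 26870 to 35670 and 23360 to 48800 at 1 h, which did. That of the ZAT clusters was higher in bent libraries at both times, at 187 to 408 against 135 to 149 CPM at 1 h and 84.4 to 138 against 56.9 to 66.9 at 3 h. The part of the virus in the other results was not tested.

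**Figure D4:**
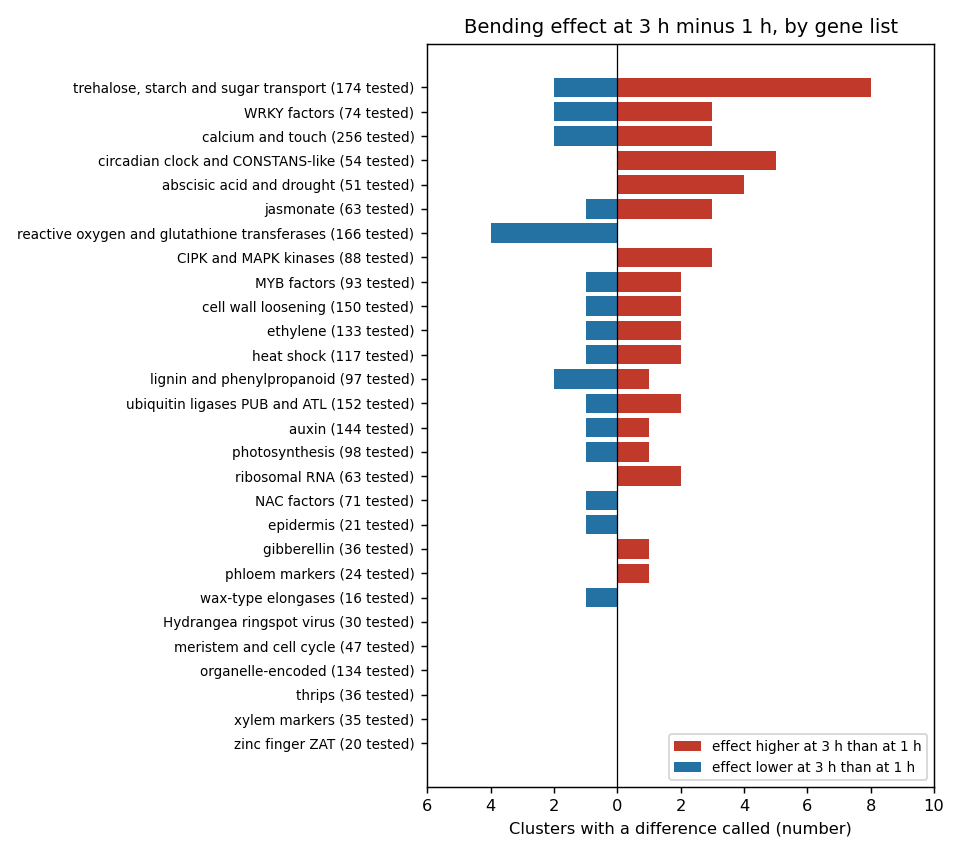
Number of clusters with a called difference in each gene list (horizontal axis, higher effect at 3 h to the right, lower to the left), with the number tested in brackets. The sugar and starch list holds 8 to the right and 2 to the left, the clock list 5 to the right and the reactive oxygen list 4 to the left.

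Several genes with a strong effect at 1 h or 3 h were not shown to differ between the times, and are named with those effects known. XTH22, a relative of XTH23 and a touch-induced gene in Arabidopsis, had effects of 2.64 and 1.41 and a difference of -1.23 with an interval from -2.71 to 0.24 (edgeR adjusted p = 0.695). PHI-1, a phosphate-induced extracellular protein, had effects of 2.35 and 1.08 in its best-measured cluster and a difference of -1.27 (-2.24 to -0.31, adjusted p = 0.388). KCS1, an elongase of wax synthesis, had effects of 1.51 and 0.66 and a difference of -0.85 (-1.46 to -0.25, adjusted p = 0.281). For TPPG, a trehalose-phosphate phosphatase with effects of 0.97 and 2.79, the difference was 1.82 (0.86 to 2.78, adjusted p = 0.111). The intervals of PHI-1, KCS1 and TPPG, which are not adjusted for the number of tests, lay on 1 side of 0. GASA14, a gibberellin-regulated peptide gene, had effects of 1.40 and 1.52 and a difference of 0.12 (-0.41 to 0.65), and LHY, a morning gene of the clock, of 0.36 and 0.40 with a difference of 0.04 (-0.17 to 0.25), the narrowest of these intervals. A cluster of MIOX4, an oxygenase of inositol picked after its values were seen, did differ, with effects of 0.67 and 2.11 and a difference of 1.44 (0.85 to 2.02, adjusted p = 0.0241). MIOX4 lost its call without unbent 1 h replicates 2 or 3, unbent 3 h replicate 3, bent 1 h replicates 1 or 2 or bent 3 h replicate 1 (1.2 to 1.44, edgeR adjusted p of 0.0511 to 0.0685), in the fit of 12 libraries (0.0931) and without the libraries richest in ribosomal RNA (0.109).

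Few of these clusters were called at the later times of the series. Of the 445, 1 was called at 24 h and 0 at 72 h by edgeR, against 13 (0.0246%) and 0 (0.0%) of all clusters. The 13 were 6 higher (0.0113%) and 7 lower (0.0132%) in bent stems. At an unadjusted p under 0.05 there were 3269 clusters (6.18%) at 24 h and 2883 (5.45%) at 72 h. The 1 cluster was PPCK1, lower in bent stems at 24 h by -0.52 on the log2 scale (adjusted p = 0.00327), after an effect of -0.42 at 1 h and 0.47 at 3 h. Class medians at 24 h were -0.01 for clusters higher and -0.08 for those lower at 1 h only, -0.03 for those higher and -0.07 for those lower at 3 h only and -0.17 for those that turned from lower to higher.

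**Figure D5:**
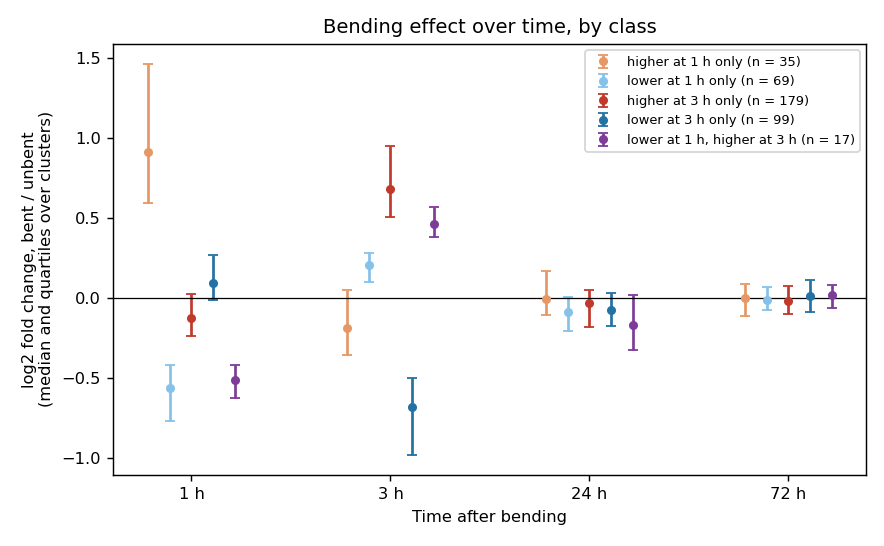
Bending effect at 1, 3, 24 and 72 h (horizontal axis) as log2 fold change of bent over unbent stems (vertical axis), for 5 classes; points are medians over the clusters of a class and bars their quartiles. The classes were sorted by the effects at 1 h and 3 h, and at 24 h their medians lie between -0.17 and -0.01.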

How the data were processed

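Poly(A) RNA of whole stems was sequenced as paired reads of 150 bases and quantified by the authors (RSEM 1.2.28, per the submitters' processing notes). How the clusters were assembled is not given in these sources. The deposited tables hold expected counts and FPKM per cluster. Expected counts, 8.054% of them not whole, were rounded to whole numbers, and the deposited FPKM values (fragments per kilobase of length and per 1 M fragments) were used for 2 alternatives only, with pseudocounts of 0.1 and 1. Total counts were 14.35 to 23.11 M over the 27 libraries.

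Counts were fitted with edgeR 4.0.16 (quasi-likelihood, TMM scaling, all 27 libraries in 9 groups, filterByExpr) in R 4.3.3, and p-values were adjusted by the Benjamini-Hochberg method over the 52918 clusters tested. A call has an adjusted p under 0.05. The common biological coefficient of variation was 0.1579. CPM are counts over the TMM-scaled library total, with no correction for length, and ± follows an effect as its standard error and a mean CPM as its SD. Intervals are 95% intervals by a normal approximation from the standard error. They take no account of the limited degrees of freedom behind the p-values, so they can be too narrow. Tables were made with Python 3.11.15, pandas 2.3.3 and NumPy 2.4.6. limma 3.58.1, DESeq2 1.42.0, other scalings and filters and the removal of each library in turn were the alternatives. The removal of the bent library richest in ribosomal RNA at each time was chosen after seeing the data. No replicate pair agreed within sampling noise (chi-square per degree of freedom of 4.048 to 10.05).

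Genes were named from clusters with a Swiss-Prot match and a mean of at least 10 CPM in 1 group. Up to 8 per class, by size of the difference, came from those called at 1 time only or in opposite directions. These had no overlap of bent and unbent libraries at the time or times of the call. Without that condition, up to 4 each came from those called alike at both times or at neither, and up to 3 per gene list by p. The 10 CPM did not apply to turned clusters. The text names a part of these, and says which others were picked after their values were seen. The comparison, the 29 gene lists and the tests were chosen with earlier results of these data known, and some list definitions were corrected after their members had been seen. The fit was tested on simulated data for the 52918 clusters, where 6 with no difference were called beside 49 and 85 true differences of 2-fold and 4-fold. The simulated counts took their spread from the fit itself and held no bending effect at 1 h. They therefore do not test the assumptions of the fit.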

Additional observations from a re-analysis of the deposited data

Results flagged for a closer look

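The effect of bending differed between 1 h and 3 h, by a test of the difference itself, in 445 clusters, of which the 62 named above are listed here with the effect at 3 h minus the effect at 1 h on the log2 scale. In 22 the effect was lower at 3 h. The larger of these were WRKY53 (-1.85), XTH23 (-1.67), GATL9 (-1.57), HSFA4A (-1.32), SRC2 (-1.29), BHLH49 (-1.08), At3g47200 (-0.99), GL2 (-0.95), MYB73 (-0.92), At1g54730 (-0.91), GT-2 (-0.90), TMK4 (-0.89) and ERF003 (-0.88). The others were CSE (-0.82), RKL1 (-0.73), PARC (-0.60), CAT1 (-0.51), PARC (-0.50), MSL10 (-0.49), LOX1.8 (-0.45), SS3 (-0.44) and CAT1 (-0.30). In 40 the effect was higher at 3 h. The larger ones were ZFP1 (1.29), BAM9 (1.33), MIOX4 (1.44), CIPK12 (1.5), BAM9 (1.53), GA20OX2 (1.54), MKK9 (1.60), CYP94C1 (1.61), RMA1H1 (1.66), OTU10 (1.70), At1g67480 (1.70), ADO3 (2.14), At5g08350 (2.36), STR15 (2.67) and CYP94C1 (2.68). Intermediate ones were At1g67750 (0.79), TPS6 (0.80), COL15 (0.81), WRKY15 (0.82), MYC2 (0.82), PI4KG5 (0.85), At2g19810 (0.86), AGPS2 (0.88), PPCK1 (0.88), threonine synthase (0.99), CSE (1.00), MYB61 (1.01), RFS1 (1.10) and BC10 (1.13). The smaller ones were CRY1 (0.44), LNK1 (0.44), PYL8 (0.54), COL5 (0.56), APRR5 (0.57), BRH1 (0.57), ERD15 (0.59), SPS1 (0.61), PYL8 (0.65), ABF3 (0.66) and AGPS2 (0.68). A symbol given more than once stands for separate clusters.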

How the results depend on the processing

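Among the recomputed counts of calls, 141 stayed within 1.5 times the values given above and 43 did not; the cause was not tested beyond what each setting does by construction. Without each of the 12 libraries in turn, differences numbered 227 to 627, those called at 1 h only 34 to 152, at 3 h only 114 to 441 and in opposite directions 12 to 37, effects at 1 h 382 to 1125 and at 3 h 1283 to 2887, and changes with time 5055 to 6818 in unbent and 7623 to 9858 in bent stems. With no filter on low counts there were 761 differences, 164 at 1 h only, 464 at 3 h only and 45 in opposite directions. DESeq2 gave 717, 160, 452 and 34, with 427 of its 717 shared with edgeR and 27703 clusters left without an adjusted p. Asking for an absolute log2 value of at least 1 as well left 145, 36, 85 and 8, with 246 effects at 1 h, 550 at 3 h, and 2380 and 3967 changes with time in unbent and bent stems. Without the bent library richest in ribosomal RNA at each time, 257 differences and 148 at 3 h only were called. limma on log2(FPKM + 0.1) called 225, of which 207 were shared with edgeR.

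With the replicate number as a block, 490 differences were called, 105 at 1 h only, 309 at 3 h only and 27 in opposite directions. The labels do not say that a number pairs libraries, and same-numbered pairs were taken as paired only if each of the 18 correlated above 0.1; 8 did (-0.076 to 0.322, median 0.0559, against -0.0391 for other numbers). The 3 pairs of bent and unbent 3 h libraries were among them (0.1014 to 0.2783), and 9 of 12 libraries correlated best with their own number, a hint from the data and not from the design. Under the block RFS1 had an adjusted p of 0.0574 by edgeR.

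Of the 92 clusters with a called difference whose value was recomputed, 36 kept the call under each alternative that gave a value, 41 under each that left all libraries in or took out those richest in ribosomal RNA, and 0 changed direction. Of 6 genes named without a called difference, TPPG was called by DESeq2. A median standard error of 0.50 log2 units limits what could be called, and intervals cover the spread between these libraries and not between plants or days. The mean share of ribosomal RNA was 4.71% in bent and 2.97% in unbent libraries at 1 h. It was 4.21% and 3.43% at 3 h, with overlapping ranges, and 2.86% and 3.38% at 24 h. Bent replicate 2 was the highest at 1 h and 3 h, and an effect of bending on this share was not tested. Without the clusters of ribosomal RNA and other organisms, 457 differences were called, 439 of them shared. The removal of the bent libraries richest in ribosomal RNA, which also leaves 2 libraries fewer, gave the 257 above.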
